A study of Mus musculus with 12 samples.

Results

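The 10 genes described here are known targets of the transcriptional regulators YAP and SRF, measured in 12 RNA-seq libraries of Ocy454, an osteocyte-like line of mouse cells. They were taken by symbol from a list of 6 YAP targets (Ccn1, Ccn2, Ankrd1, F3, Amotl2 and Axl) and 4 SRF targets (Acta2, Tagln, Cnn1 and Myl9), out of 35214 genes in the files. Ccn1 and Ccn2 are also named Cyr61 and Ctgf. The cells had differentiated for 5 days and received either DMSO vehicle or 200 nM BGJ398, an inhibitor of the FGF receptor kinases, as a 1 h pretreatment. They were then kept for 48 h with or without fibroblast growth factor 2 (FGF2) at 2 ng/mL and lysed on day 7 of differentiation. The 3 libraries of each group are referred to as DMSO (neither agent), BGJ398 (inhibitor alone), DMSO+FGF2 (growth factor alone) and BGJ398+FGF2 (both). All come from 1 cell line, and the labels describe them as triplicates without saying that the cultures were independent, so the p-values reflect library-to-library spread that may be technical.

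YAP and its relative TAZ (gene Wwtr1) are coactivators without a DNA-binding domain of their own. They act mainly through TEAD factors, and the kinases of the Hippo pathway keep them out of the nucleus when cells are crowded or slack. SRF binds DNA directly and works with either of 2 families of partners: the MRTF proteins, which are released when actin polymerizes and drive contractile and cytoskeletal genes, and the ternary complex factors (TCF), which ERK phosphorylates and which drive immediate-early genes. In bone-forming cells both routes are studied as readouts of stretch, stiffness and attachment to matrix.

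The proximal promoters show which of these routes has matching letters close to each start. RefSeq promoter sequences (build GRCm38.p6) were found for 8 of the 10 members, and the 250 bases before each start were searched on both strands for the TEAD motif GGAATG and for the CArG box, the sequence bound by SRF, either exact or with at most 1 mismatch in its A/T core. The TEAD letters occurred in 5 of the 8, namely Ccn1, Amotl2, Axl, Acta2 and, at 2 places, Ankrd1, against 12.6% of 32851 promoters of the same length. An exact CArG box occurred in Myl9, against 1.47% of promoters, and the form with at most 1 mismatch in Acta2 and Myl9, at 2 places in each, against 8.59%. The CArG matches did not overlap the TEAD matches. F3 and Cnn1 held no match in this window. These are matches of letters and not shown binding sites. The Ccn1 window is printed whole because its start lies within 4 bases of the start of its transcript in GENCODE, and 30 bases around each match are printed for the other genes. Capitals mark the match, and all sequences run 5′ to 3′ along the gene.
Ccn1 promoter, chr3:145649986-145650235, minus strand: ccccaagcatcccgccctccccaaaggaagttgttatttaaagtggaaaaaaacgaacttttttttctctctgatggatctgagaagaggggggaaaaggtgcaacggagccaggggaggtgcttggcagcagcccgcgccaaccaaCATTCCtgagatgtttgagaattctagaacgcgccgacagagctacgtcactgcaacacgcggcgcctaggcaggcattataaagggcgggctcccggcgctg
Amotl2, TEAD motif, chr9:102717727-102717756, plus strand: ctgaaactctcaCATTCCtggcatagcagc
Ankrd1, TEAD motif, chr19:36120037-36120066, minus strand: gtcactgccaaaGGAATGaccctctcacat
Ankrd1, TEAD motif, chr19:36119950-36119979, minus strand: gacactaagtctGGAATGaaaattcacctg
Axl, TEAD motif, chr7:25788949-25788978, minus strand: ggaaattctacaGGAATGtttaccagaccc
Acta2, TEAD motif, chr19:34255502-34255531, minus strand: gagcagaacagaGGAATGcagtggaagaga
Acta2, CArG box with 1 mismatch, chr19:34255438-34255467, minus strand: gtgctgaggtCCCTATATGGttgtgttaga
Acta2, CArG box with 1 mismatch, chr19:34255388-34255417, minus strand: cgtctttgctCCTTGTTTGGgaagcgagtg
Myl9, CArG box, chr2:156775293-156775322, plus strand: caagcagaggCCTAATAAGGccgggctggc
Myl9, CArG box with 1 mismatch, chr2:156775355-156775384, plus strand: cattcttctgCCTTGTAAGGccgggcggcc
In the GENCODE annotation the most-read transcripts of Acta2, Amotl2, Ankrd1 and Myl9 start 217, 136, 255 and 44 bases before the RefSeq start. All matches printed for Acta2, Amotl2 and Ankrd1 therefore lie downstream of that transcript start, within the transcribed region, and those for Myl9 lie before it. For Axl the position of the most-read transcript's start relative to the RefSeq start was not found.

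Depth was 18951710 to 27716975 reads per library. The labels record no batch. Of the 12 libraries 3 lay on the same side, more than 10 units from 0, of the first axis of within-group deviations, which held 22.7% of the variance left after the group means were removed. They were BGJ398 replicate 1 (13.3), DMSO+FGF2 replicate 2 (14.6) and BGJ398+FGF2 replicate 2 (28.0). Another 3 lay beyond 10 on the other side, DMSO+FGF2 replicate 3 (−10.4) and BGJ398+FGF2 replicates 1 (−11.9) and 3 (−16.1). Positions sum to 0 within a group, so a library far to one side places others of its group on the opposite side. Leaving out all 6 would leave no BGJ398+FGF2 library. Every count of members is therefore also given without the first 3, a choice made after the data were seen. Those 3 were picked for deviating from their groups, so leaving them out lowers the within-group spread by construction and favours smaller p-values. The osteoblast genes Col1a1 and Col1a2 averaged 9485 and 7905 CPM (read counts scaled to library size) in DMSO. The osteocyte genes Sost and Mepe had 0 reads in all 12 libraries and Dmp1 had 26, so the defining markers of mature osteocytes were absent or nearly so.

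Levels of the members are given in TPM, the authors' length-corrected share of all transcripts in a library, which allows genes to be compared with each other. In DMSO the contractile genes stood highest: smooth muscle actin, Acta2, averaged 618.7 TPM, the regulatory myosin light chain Myl9 420.6 TPM and transgelin, Tagln, an actin-bundling protein, 295.7 TPM. Ccn1, a secreted matrix-associated protein, followed at 265.0 TPM. Amotl2, an angiomotin family scaffold that itself restrains YAP, had 214.0 TPM and Axl, a receptor tyrosine kinase for GAS6, 210.5 TPM, and the libraries of these neighbours overlapped. Tissue factor F3, the cell-surface trigger of coagulation, averaged 73.6 TPM, Ankrd1, an ankyrin-repeat protein of muscle sarcomeres and nuclei, 36.1 TPM, and Ccn2, connective tissue growth factor, 18.5 TPM. Apart from Amotl2 and Axl, neighbours in this order did not overlap. With FGF2 the order changed: Axl (265.6 TPM) stood above Tagln, Ccn1 and Amotl2 (193.1, 189.7 and 179.6 TPM), and the libraries of Acta2 and Myl9, and of F3 and Ankrd1 (46.4 and 45.01 TPM), now overlapped.

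**Figure D1:**
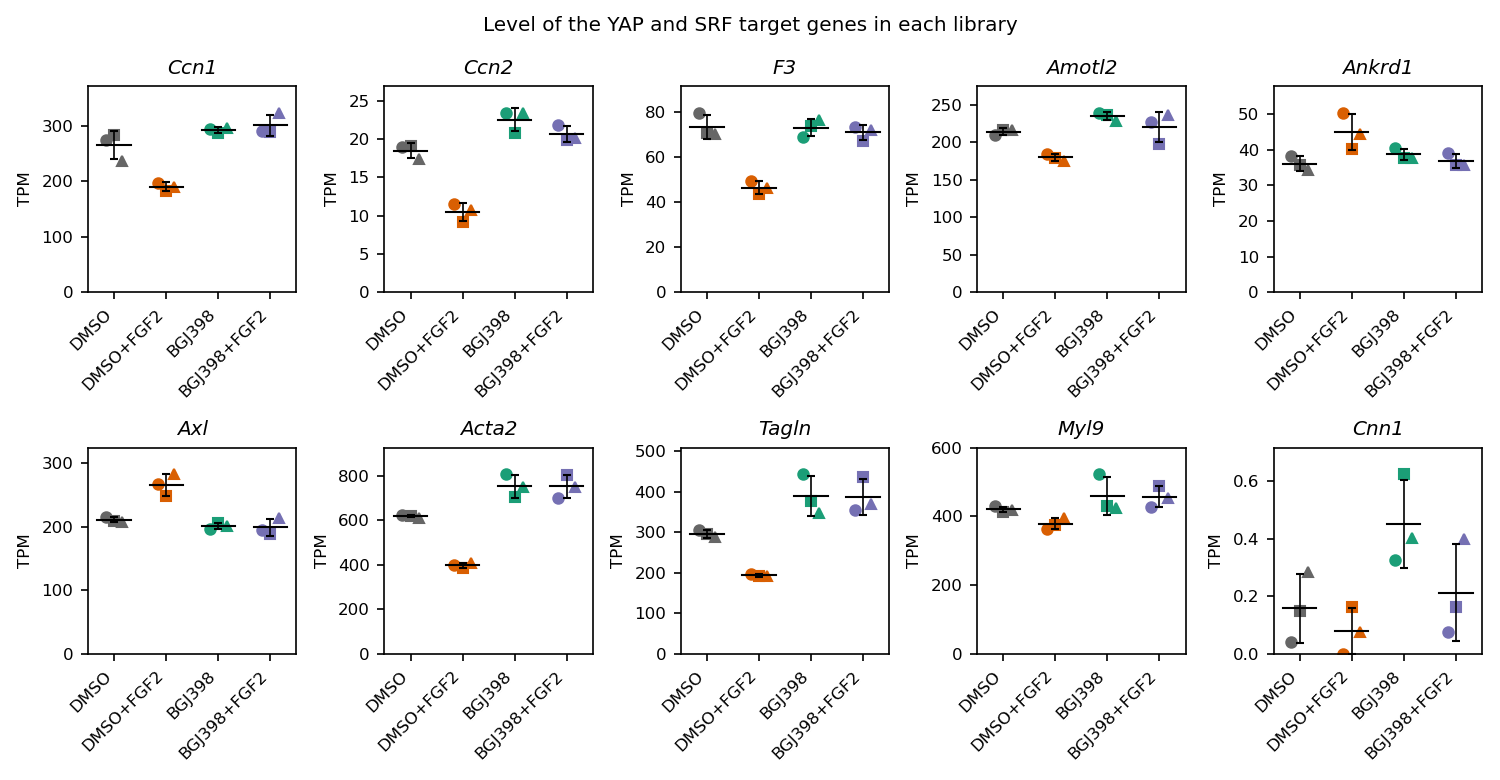
Level in TPM (vertical axes, from 0, a separate scale for each gene) of the 10 members in the 4 groups (horizontal axes). Points are libraries (circle, square and triangle for replicates 1, 2 and 3), horizontal lines are means and bars are SD of 3 libraries. DMSO+FGF2 has the lowest mean for Ccn1, Ccn2, F3, Amotl2, Acta2, Tagln, Myl9 and Cnn1 and the highest for Ankrd1 and Axl. Myl9 did not pass the test of FGF2 in DMSO, and Cnn1 was too sparse to be tested.

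The first comparison asked how FGF2 moved these genes with the receptors free to signal. Of the 6 YAP targets 4 fell and 2 rose, and 2 of the 3 SRF targets that could be tested fell. Thus 8 of the 9 tested members were called by edgeR's quasi-likelihood test (adjusted p under 0.05), 6 lower and 2 higher, beside 13.4% of all 12542 tested genes (5.82% lower and 7.57% higher). The same 8 had libraries that did not overlap between the groups on the CPM scale, beside 37.6% of all genes (18.4% lower and 19.2% higher). The median log2 fold change of the 9 was −0.41, and that of all genes was 0.00. Without the 3 libraries that deviated together the counts were again 6 lower and 2 higher. The members were chosen with earlier results of these data known, so these counts describe the list and are not independent evidence of its direction.

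Ccn2, a secreted protein that promotes matrix production, changed most among the members. Its libraries held 19.01, 19.1 and 17.4 TPM in DMSO and 11.4, 9.16 and 10.7 TPM in DMSO+FGF2. Every FGF2 library lay well below every control library, and the log2 fold change was −0.76 ± 0.11 (SE, adjusted p = 0.000413). Ccn1 had 274.9, 284.1 and 235.9 TPM in DMSO and 197.6, 181.4 and 190.0 TPM in DMSO+FGF2. The groups did not overlap, DMSO replicate 3 being the lowest control, and the change was −0.41 ± 0.07 (adjusted p = 0.00199). F3 had 79.7, 70.7 and 70.2 TPM in DMSO against 49.5, 43.6 and 46.1 TPM with FGF2. The separation was wide relative to the scatter within either group, with a change of −0.59 ± 0.06 (adjusted p = 3.08e-05).

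Amotl2 had the smallest change that passed. Its values were 208.9, 216.8 and 216.4 TPM in DMSO and 184.8, 179.2 and 174.9 TPM in DMSO+FGF2, and these groups did not overlap. The log2 fold change was −0.20 ± 0.06 (adjusted p = 0.0347). This call was lost under 9 of 20 other settings, over which the adjusted p ran from 0.0026 to 0.128. Among them were the replicate block (0.056), length-scaled TPM (0.0626), each setting that left out 1 DMSO or DMSO+FGF2 library, and the one without BGJ398 replicate 2 (0.0511).

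Ankrd1 and Axl moved the other way. Ankrd1 had 38.3, 35.8 and 34.3 TPM in DMSO and 50.4, 40.1 and 44.5 TPM in DMSO+FGF2, so the lowest FGF2 library stood just above the highest control. Its change was 0.39 ± 0.08 (adjusted p = 0.00611). For Axl the values were 214.8, 209.1 and 207.4 TPM in DMSO and 266.4, 248.3 and 282.1 TPM with FGF2. All FGF2 libraries were clearly higher, and the change was 0.39 ± 0.05 (adjusted p = 0.000124). The TEAD letters printed above occurred before the RefSeq starts of both genes that rose and also of Ccn1, Amotl2 and Acta2, which fell. In Ankrd1, Amotl2 and Acta2 these letters lie downstream of the start of the most-read transcript.

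Among the SRF targets, Acta2 had 623.2, 620.4 and 612.7 TPM in DMSO and 400.4, 384.9 and 408.0 TPM in DMSO+FGF2. The replicates of both groups were tight and far apart, with a log2 fold change of −0.56 ± 0.08 (adjusted p = 0.000574). Tagln had 305.1, 294.8 and 287.2 TPM in DMSO and 196.9, 191.7 and 190.8 TPM in DMSO+FGF2, and fell by 0.53 on the log2 scale (SE 0.12, adjusted p = 0.0092). The gene overlaps Pcsk7 on the opposite strand, 3.93% of its 31-base sequences are shared with other genes, and the use of strand is not given in the sources used here. Whether reads of the 2 genes over the overlap were told apart is therefore not known. Tagln held 65137 reads in all and Pcsk7 13618. Gm48529, which also overlaps Tagln on the opposite strand, was not quantified.

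Myl9 did not follow Acta2 and Tagln past the threshold. Its values were 429.3, 414.1 and 418.3 TPM in DMSO and 364.6, 374.8 and 396.1 TPM in DMSO+FGF2. In TPM the FGF2 libraries were all lower, but scaled for library composition the groups overlapped, and the log2 fold change was −0.07 ± 0.10 with a 95% interval of −0.28 to 0.13 (adjusted p = 0.686). Cnn1, calponin 1, a late marker of smooth muscle differentiation, was at the limit of detection, with 41 reads over the 12 libraries and 0 to 7 in any one. DMSO+FGF2 replicate 1 had 0 reads, which allows up to 0.117 CPM by counting error alone. Cnn1 did not pass the filter on low counts, so it was not tested.

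RNA was measured from whole cultures, so fewer cells of a type and less RNA per cell cannot be told apart. Of 7 smooth muscle markers 5 could be tested. Of these 2 fell with FGF2, Actg2 and Lmod1, and 0 rose, beside 13.4% of all genes called in this comparison, and the summed level of the 7 was 164.8 to 177.1 CPM in DMSO and 142.9 to 154.7 CPM in DMSO+FGF2. The defining genes of that cell type were near 0, with 2 reads of Myocd and 43 of Myh11 over the 12 libraries. Of 6 pericyte markers 2 could be tested and 1, Pdgfrb, fell, and the sum of the 6 was 682.6 to 714.8 CPM in DMSO and 634.9 to 672.6 CPM in DMSO+FGF2. Rgs5, Abcc9 and Kcnj8 had 1, 1 and 0 reads in all libraries. Of 7 markers of skeletal and cardiac muscle 3 could be tested and 0 passed, with a sum of 4.92 to 7.74 CPM in these groups and 0 reads of Myod1 and Myog. Endothelial markers summed to at most 0.353 CPM in any library. Of 5 macrophage markers 3 could be tested. Cd68 rose from 1.53 to 5.95 CPM on average, while Lyz2 had −1.19 ± 0.40 (adjusted p = 0.0658) and Csf1r −0.75 ± 0.68 (0.539), and the sum of the 5 was 2.85 to 3.27 CPM in DMSO and 5.71 to 7.19 CPM in DMSO+FGF2, with 2 reads of Ptprc and 0 of Adgre1 in all. Of 12 osteoblast and osteocyte markers 9 were tested. The osteoblast genes Runx2, Sp7, Col1a1, Col1a2, Alpl and Bglap fell, with log2 fold changes from −3.18 (Alpl) to −0.30 (Runx2). Spp1 (1.34 ± 0.08) and the early osteocyte marker Pdpn (0.52 ± 0.08) rose, and Phex had −0.36 ± 0.43. The sum of the 12, most of it Col1a1 and Col1a2, was 17370 to 18430 CPM in DMSO and 11620 to 13760 CPM in DMSO+FGF2. The part of any of these cell types in the changes of the members was not tested.

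**Figure D2:**
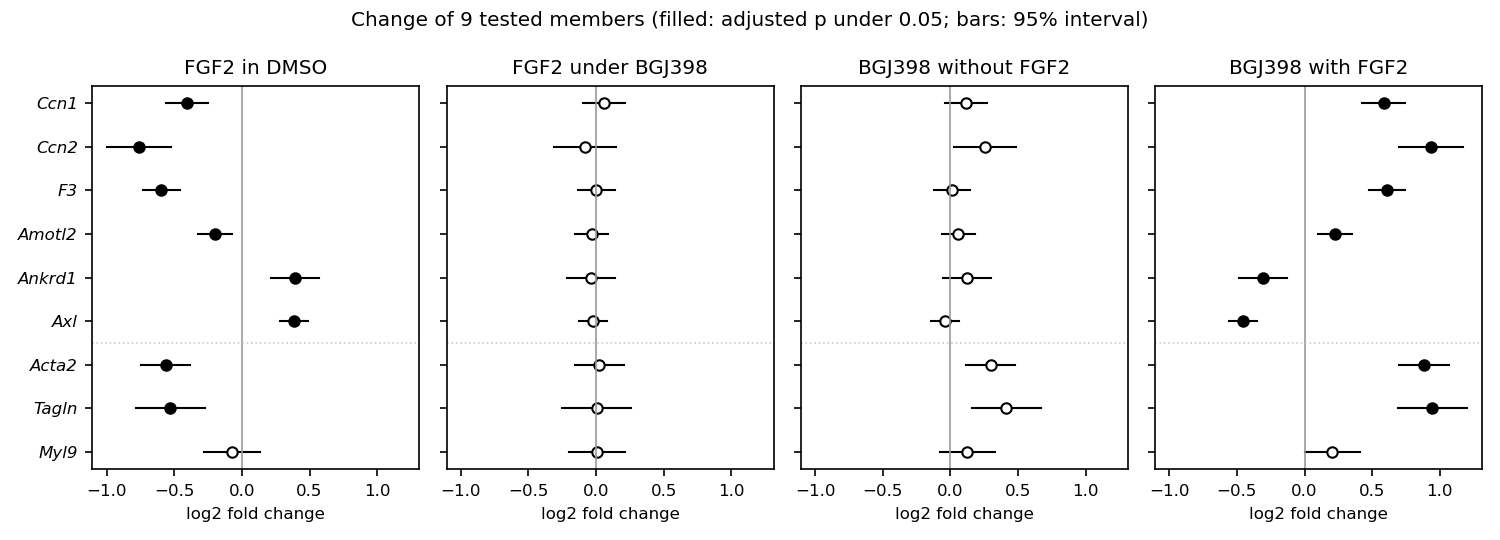
Log2 fold change (horizontal axes) of the 9 tested members in 4 comparisons, with 95% intervals as bars. Filled points had an adjusted p under 0.05 (edgeR) and open points did not. The dotted line divides the YAP targets above from the SRF targets below. In the FGF2 comparison with BGJ398 present the point estimates lie between −0.08 and 0.06.

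With BGJ398 present, FGF2 moved none of the members past the test. Their log2 fold changes lay between −0.08 (Ccn2) and 0.06 (Ccn1), and the groups overlapped for all 9, beside 6.31% of all genes whose libraries did not overlap (3.44% higher and 2.88% lower). No gene of the 12542 was called by edgeR (0%), 325 (2.59%) had an unadjusted p under 0.05, DESeq2 called 5 and limma-voom 0. Among the members 0 had an unadjusted p under 0.05. The count of members stayed at 0 in each of the 20 other settings.

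Acta2 illustrates the spread behind this. It had 807.3, 703.8 and 751.0 TPM in BGJ398 and 702.2, 804.7 and 751.8 TPM in BGJ398+FGF2, almost the same values in another order, with a change of 0.02 ± 0.08 and a 95% interval of −0.16 to 0.21. Ccn2 had 23.4, 20.8 and 23.4 TPM in BGJ398 and 21.8, 19.9 and 20.2 TPM in BGJ398+FGF2. Its interval of −0.31 to 0.14 left out the −0.76 measured without inhibitor. For F3 the values were 69.2, 74.0 and 76.4 TPM against 73.5, 67.4 and 72.3 TPM, and the interval was −0.13 to 0.14. For Axl they were 196.6, 206.0 and 201.5 TPM against 195.1, 187.7 and 213.3 TPM, and the interval was −0.13 to 0.08. Tagln had the widest interval, −0.25 to 0.26, with replicates from 347.0 to 442.9 TPM in BGJ398 and from 354.1 to 437.3 TPM in BGJ398+FGF2.

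The difference between the FGF2 responses was tested as an interaction: the log2 change with FGF2 in the presence of BGJ398, less that in its absence. Of the 9 members 5 passed, 4 positive and 1 negative, beside 4.24% of all genes (1.99% positive and 2.25% negative). F3 had an interaction of 0.60 ± 0.09 (adjusted p = 0.00162), Acta2 one of 0.59 ± 0.12 (0.0126), Ccn2 one of 0.68 ± 0.15 (0.0225) and Ccn1 one of 0.47 ± 0.10 (0.0192). Axl, which FGF2 raised, had −0.41 ± 0.07 (adjusted p = 0.0034). For these 5 genes the response to FGF2 thus differed between the inhibitor and the vehicle by the test itself. Ankrd1 at −0.43 ± 0.12 (adjusted p = 0.0586), Tagln at 0.53 ± 0.17 (0.101), Amotl2 at 0.17 ± 0.08 (0.321) and Myl9 at 0.08 ± 0.13 (0.835) did not pass. A difference between the responses of these 4 was not shown in this fit, and their 95% intervals were −0.68 to −0.18, 0.17 to 0.89, −0.01 to 0.34 and −0.21 to 0.37. Ankrd1 passed under 6 of 19 other settings, among them no low-count filter (0.0358), DESeq2 (0.0167) and the replicate block (0.0336), and without DMSO+FGF2 replicate 2 (0.0499) or BGJ398+FGF2 replicate 2 (0.0306). Tagln passed under 4, among them no low-count filter (0.0127), DESeq2 (0.0314) and without BGJ398 replicate 1 (0.0211). Some calls depended on single libraries. Only 3 members passed without DMSO replicate 1, without DMSO replicate 2 or without DMSO+FGF2 replicate 3, where Ccn1 and Ccn2 had an adjusted p of 0.0532 to 0.0687. The call on Ccn1 was also lost without BGJ398 replicate 2 (0.0576), and that on Ccn2 without DMSO+FGF2 replicate 2 (0.0604) or BGJ398+FGF2 replicate 1 (0.0528). With the 3 deviating libraries left out 8 passed, all but Myl9. F3, Acta2 and Axl passed in every setting tried.

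The third comparison set BGJ398 against DMSO without added FGF2. By edgeR 0 members passed the test, beside 0.327% of all genes (0.151% higher and 0.175% lower), and 3 of 9 had an unadjusted p under 0.05 (Ccn2, Acta2 and Tagln). Acta2 had 703.8 to 807.3 TPM in BGJ398 against 612.7 to 623.2 TPM in DMSO, and Tagln 347.0 to 442.9 TPM against 287.2 to 305.1 TPM. For both, all BGJ398 libraries stood above all DMSO libraries on the CPM scale too, beside 17.2% of all genes whose libraries did not overlap (9.11% higher and 8.08% lower). Their log2 fold changes of 0.30 ± 0.08 (adjusted p = 0.233) and 0.41 ± 0.12 (adjusted p = 0.239) fell short of the threshold.

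For these 2 genes the call depended on the libraries used. BGJ398 replicate 1 was the highest library of its group for both genes. Without the 3 libraries that deviated together both passed, with smaller changes of 0.22 ± 0.04 (adjusted p = 0.00594) and 0.27 ± 0.04 (adjusted p = 0.00321). The lower SE is partly built in, because these libraries were picked for their deviation. Over all settings the adjusted p ran from 0.00594 to 0.65 for Acta2 and from 0.00321 to 0.662 for Tagln. With DESeq2 both passed, at 0.0471 and 0.0456, as they did without BGJ398+FGF2 replicate 2, at 0.0344 and 0.0442, and Tagln also passed without the low-count filter, at 0.0282. Of the YAP targets, Ccn2 had 0.26 ± 0.11 (adjusted p = 0.531), Ankrd1 0.12 ± 0.08 and Ccn1 0.12 ± 0.07. The values for Amotl2, F3 and Axl were 0.06 ± 0.06, 0.01 ± 0.06 and −0.04 ± 0.05, and that for Myl9 was 0.13 ± 0.10. Cnn1, too sparse for the test, was listed at 0.327, 0.624 and 0.404 TPM in BGJ398 on 3, 7 and 6 reads, and at 0.0418, 0.149 and 0.283 TPM in DMSO on 1, 5 and 3 reads.

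In cells given FGF2, BGJ398 against DMSO moved 8 of the 9 tested members, 6 higher and 2 lower, beside 22.2% of all genes (10.8% higher and 11.4% lower). The same 8 did not overlap between the groups, beside 34.8% of all genes (17.3% higher and 17.5% lower). This comparison shares the DMSO+FGF2 libraries with the first one, so its values are given beside those above and not as a second line of evidence. Tagln and Ccn2 rose by 0.94 ± 0.12 (adjusted p = 0.000103) and 0.93 ± 0.11 (5.99e-05), and Acta2 by 0.88 ± 0.08 (1.15e-05). Tagln went from 190.8 to 196.9 TPM in DMSO+FGF2 to 354.1 to 437.3 TPM in BGJ398+FGF2, and Acta2 from 384.9 to 408.0 TPM to 702.2 to 804.7 TPM. In both genes the lowest inhibitor library stood far above the highest FGF2 library. F3 rose by 0.61 ± 0.06 (adjusted p = 2.01e-05), Ccn1 by 0.58 ± 0.07 (9.02e-05) and Amotl2 by 0.23 ± 0.06 (0.0131). Axl fell by 0.45 on the log2 scale (SE 0.05, adjusted p = 2.65e-05) and Ankrd1 by 0.30 (SE 0.08, adjusted p = 0.0179). In this comparison the call on Ankrd1 was lost without DMSO+FGF2 replicate 1 (adjusted p = 0.0861), without BGJ398+FGF2 replicate 3 (0.0679) and when only these 2 groups were fitted (0.0544). That on Amotl2 was lost in the last of these settings (0.0531) and without DMSO+FGF2 replicate 3 (0.0543). Myl9 had 0.21 ± 0.10 (adjusted p = 0.145), and 0.14 ± 0.05 (0.0399) without the 3 libraries that deviated together, where 7 members were higher and 2 lower.

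In each group given BGJ398, the tested SRF targets all stood highest in the same library. In log2 CPM, BGJ398 replicate 1 stood 0.15, 0.27 and 0.21 above its group mean for Acta2, Tagln and Myl9, and BGJ398+FGF2 replicate 2 stood 0.21, 0.28 and 0.20 above its own. These are 2 of the 3 libraries named above. The third, DMSO+FGF2 replicate 2, deviated by 0.01, 0.02 and 0.07. In DMSO+FGF2 replicate 1 the values for these genes differed in sign, at −0.01, 0.02 and −0.09. Among the YAP targets, BGJ398 replicate 1 stood above its group mean for 5 of 6, by 0.21 for Ccn2, 0.10 for Ankrd1, 0.10 for Ccn1, 0.08 for Amotl2 and 0.07 for Axl, and at −0.03 for F3. BGJ398+FGF2 replicate 2 showed less of a shift in them, with 0.03 for Ccn1, 0.03 for Ccn2, 0.03 for F3, 0.07 for Ankrd1, −0.10 for Amotl2 and −0.02 for Axl. What set these libraries apart was not tested.

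**Figure D3:**
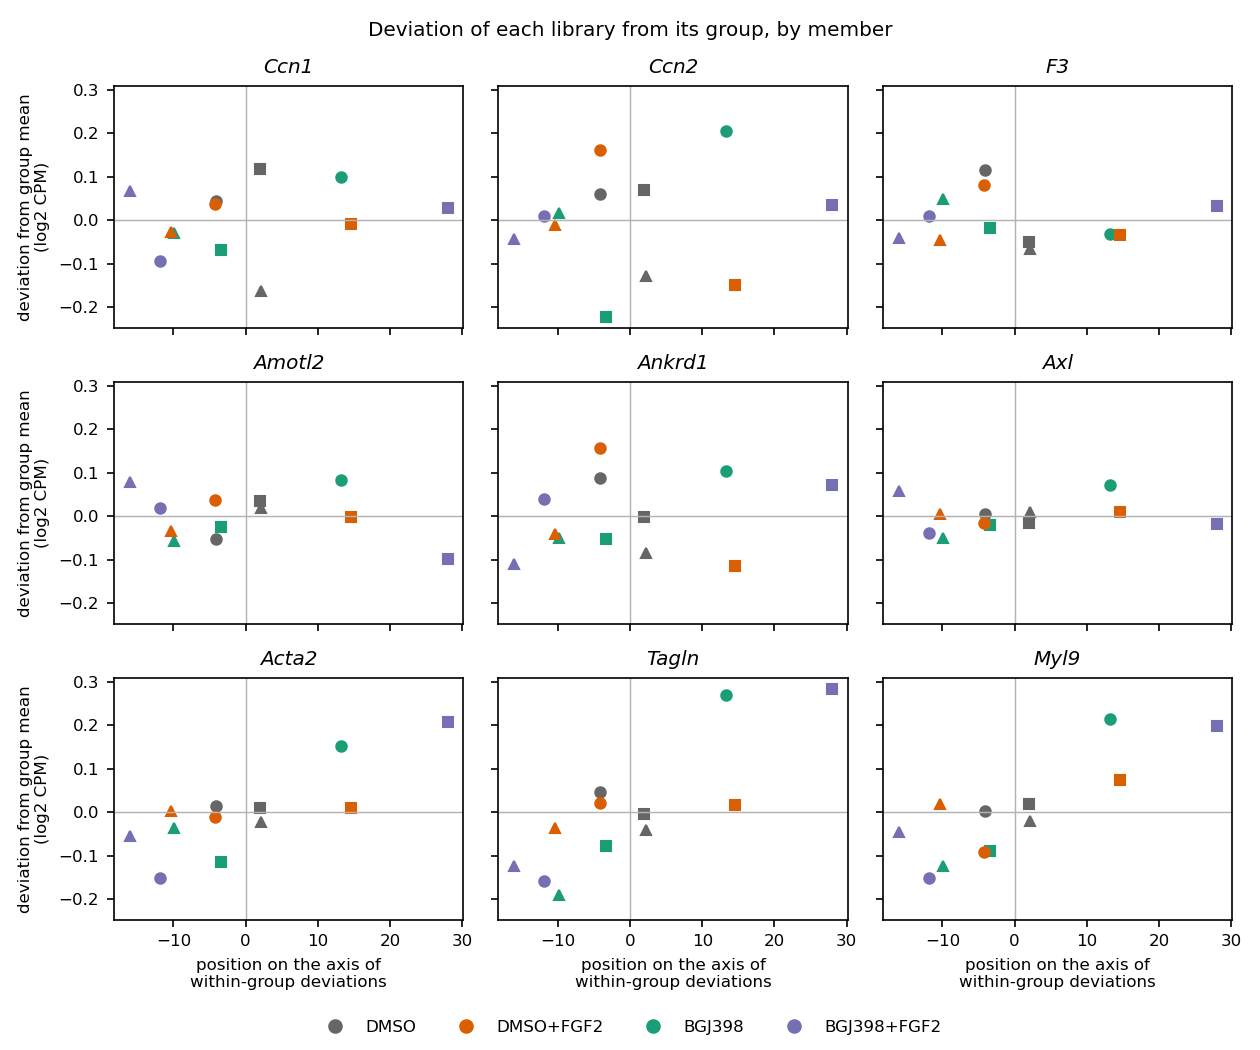
Deviation of each library from its group mean in log2 CPM (vertical axes) against its position on the first axis of within-group deviations over all tested genes (horizontal axes), for the 9 tested members. Colours are groups and shapes are replicates 1 (circle), 2 (square) and 3 (triangle). The libraries furthest to the right are BGJ398+FGF2 replicate 2, DMSO+FGF2 replicate 2 and BGJ398 replicate 1. For Acta2, Tagln and Myl9, BGJ398 replicate 1 and BGJ398+FGF2 replicate 2 stood 0.15 to 0.28 above their group means. DMSO+FGF2 replicate 2 stood only 0.01, 0.02 and 0.07 above its own.

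Other genes of the same pathways were taken from lists of published targets and regulators. Of 20 other YAP targets 19 were tested, and of these FGF2 in DMSO raised 2 and lowered 1, a share near the 13.4% of all genes called in this comparison. The counts for FGF2 in DMSO in the lists that follow are also to be read against that share. The growth-arrest gene Gadd45a rose from 40.0 ± 3.4 to 77.2 ± 7.7 CPM (SD, n = 3; log2 fold change 0.95 ± 0.13), and Nuak2, a kinase related to AMPK, rose by 0.53 ± 0.10. Nt5e, the ecto-nucleotidase CD73, changed by −0.47 ± 0.13. The abundant targets Asap1 and Ccdc80 had 0.14 ± 0.06 and 0.06 ± 0.05 and did not pass. The list's median was 0.02, beside −0.30 for the 6 YAP targets described above. In the interaction Gadd45a had −0.91 ± 0.19 and Nt5e 0.70 ± 0.18, and both passed.

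Of 24 other MRTF and SRF targets 22 were tested, and of these 5 fell and 2 rose with FGF2, and the median was −0.06. Lmod1, a leiomodin that nucleates actin filaments in smooth muscle, went from 13.8 ± 0.8 to 8.14 ± 1.38 CPM, a change of −0.75 ± 0.12. The smooth muscle actin Actg2 changed by −0.35 ± 0.09. Lmod1 and Actg2, like Smtn and Myh11, stand in both this list and that of the smooth muscle markers. Their falls are the same ones counted above and not separate observations. The tropomyosins split: Tpm1 changed by −0.29 ± 0.06 and Tpm2 by 0.43 ± 0.09, and both passed. Zyxin, Zyx, a focal adhesion protein, rose by 0.34 ± 0.05. The cytoplasmic actins Actb and Actg1, which share 23.6% and 39.0% of their 31-base sequences with other genes and are uncertain, had 0.08 ± 0.05 and 0.14 ± 0.06 and did not pass. In the interaction Lmod1 (0.73 ± 0.17) and Zyx (−0.31 ± 0.07) passed, with opposite signs.

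All 9 immediate-early and other TCF and SRF targets were tested, and FGF2 lowered 3 and raised 1, with a median of −0.24. The lowered genes were the zinc-finger factors Egr3 (−0.78 ± 0.12), Egr2 (−0.72 ± 0.12) and Egr1 (−0.38 ± 0.08), and the AP-1 subunit Junb rose by 0.51 ± 0.10. The anti-apoptotic gene Mcl1 had 0.00 ± 0.05. Against the FGF2 libraries, BGJ398+FGF2 had 5 of the 9 higher and 1 lower, beside 22.2% of all genes (10.8% higher and 11.4% lower). Among the higher ones were Egr2 at 0.99 ± 0.12 and Egr1 at 0.48 ± 0.08. Egr2 also passed in the interaction, at 0.79 ± 0.17. In BGJ398+FGF2 against DMSO+FGF2 the 19 tested other YAP targets had 4 higher and 5 lower, with a median of 0.00. The 22 tested other MRTF and SRF targets had 5 higher and 2 lower, with a median of 0.01. Both counts are to be read against the same 22.2%.

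Among the regulators themselves, Yap1 averaged 75.3 ± 1.3 TPM in DMSO and 70.0 ± 4.4 TPM in DMSO+FGF2, and its log2 fold change on the CPM scale was −0.02 ± 0.05, with an interval of −0.13 to 0.09. Wwtr1, which encodes TAZ, had 0.00 ± 0.07 and Tead1 0.00 ± 0.14. Srf had 0.09 ± 0.09, Mrtfa −0.33 ± 0.22 and Mrtfb −0.10 ± 0.10. None of these 6 passed in any of the 5 comparisons. Of 16 Hippo pathway and TEAD-related genes 3 fell with FGF2 and 0 rose: the TEAD cofactors Vgll3 (−0.37 ± 0.06) and Vgll4 (−0.34 ± 0.06) and the Hippo kinase gene Stk3 (−0.30 ± 0.08). The abundant Mob1a and Tead2 had −0.01 ± 0.06 and 0.18 ± 0.06 and did not pass. Of 12 SRF regulators 11 were tested and 2 rose, the GTPase gene Rhoc (0.32 ± 0.10) and the TCF gene Elk3 (0.19 ± 0.05), while Rhoa had 0.05 ± 0.05. In BGJ398+FGF2 against DMSO+FGF2, 4 of the 16 Hippo pathway and TEAD-related genes were higher and 1 lower. Of the 11 SRF regulators 0 were higher and 2 lower, beside 22.2% of all genes called. Vgll4 was higher by 0.34 ± 0.06, and Tead3, Rhoc and Elk3 changed by −0.29 ± 0.06, −0.44 ± 0.10 and −0.26 ± 0.05. In the interaction 1 of the 16 passed, Vgll3, with a positive value, beside 4.24% of all genes. Of the genes in these 5 lists 0 passed for FGF2 under BGJ398 and 0 for BGJ398 without FGF2, beside 0% and 0.327% of all genes.

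**Figure D4:**
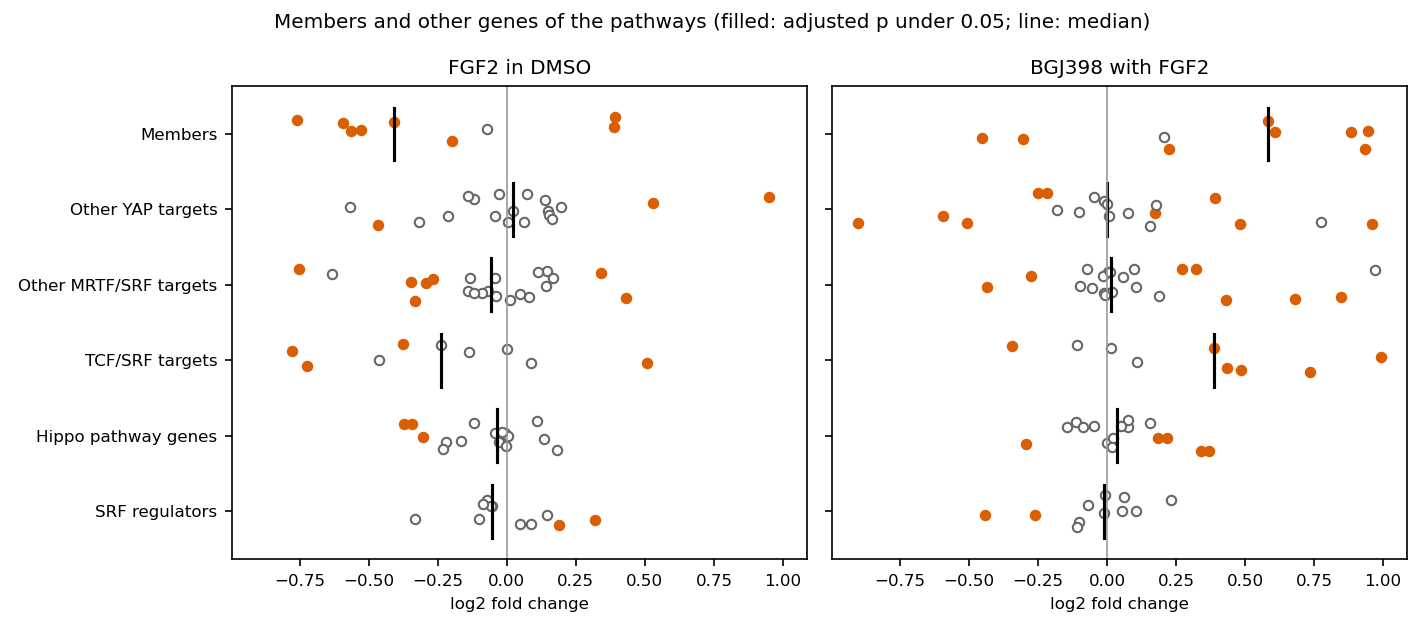
Log2 fold change (horizontal axes) of the 9 tested members and of the tested genes of 5 other lists, for FGF2 in DMSO and for BGJ398 in FGF2-treated cells, comparisons that share the DMSO+FGF2 libraries. Points are genes, filled where the adjusted p was under 0.05, the vertical position within a list is arbitrary, and black lines are medians, −0.41 for the members in the first panel and −0.06 to 0.02 for the lists other than the TCF targets (−0.24). Tead1 and Lats2 stand in both the YAP target and Hippo lists, and Srf in both SRF lists.

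Genes outside these lists with the most similar course over the 12 libraries were found by the mean absolute difference of log2 CPM centred on each gene's mean. For Ccn2 these were Nr4a1, an orphan nuclear receptor and immediate-early gene, at 0.06, and Cables1 at 0.08, beside a median of 0.36 over all genes. For Acta2 they were the homeobox gene Irx5 and P-cadherin, Cdh3, at 0.06 and 0.07, and for Tagln the Notch target Hes1 and again Cdh3, at 0.09 and 0.10, beside medians of 0.32 and 0.35. For Ccn1 they were Tdg and the collagen gene Col5a2, at 0.05 and 0.06, and for F3 Adh7 and Snx7, at 0.06 and 0.06. Ankrd1 was closest to the thrombin receptor gene F2r and Gpnmb, at 0.05 and 0.05, and Axl to Rab11fip5 and Mroh1, at 0.02 and 0.04. Amotl2 was closest to Pkp4 and Gpsm2, at 0.03 and 0.04, and Myl9 to Akt1s1 and Pdrg1, at 0.03 and 0.04. Among the members themselves Acta2 and Tagln were the closest pair, at 0.07.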

How the data were processed

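Expected counts, TPM and effective lengths per transcript were deposited by the authors, per the file headers, for 12 poly(A) RNA libraries in 4 groups of 3. Per the submitters' processing notes they were made with Salmon on build GRCm39; the sources used here give no version, annotation, strand setting or trimming. The expected counts are unscaled estimated reads, and the TPM were scaled by the authors' quantification to a fixed total after length correction. The deposited effective lengths, another column, are in bases.

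Transcripts were matched by identifier to GENCODE M21 (114656 matched; 1522 unmatched, 0.499% to 0.641% of reads, left out), summed per gene and rounded. Each library detected 12115 to 12488 genes at 10 reads or more. Low counts were removed with filterByExpr by group (12542 genes kept), and edgeR 4.0.16 under R 4.3.3 scaled libraries by TMM and gave quasi-likelihood tests from 1 model of 4 group means (8 residual degrees of freedom). P-values are 2-sided and Benjamini-Hochberg adjusted over all tested genes, with a threshold of 0.05. The SE of a log2 fold change is its size divided by the square root of F, and intervals are 95%. The procedure was tested on simulated counts. Titles gave each sample's group and number.

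Alternatives were no filter, DESeq2 size factors, DESeq2 1.42.0, limma-voom (limma 3.58.1), length-scaled TPM, only the 2 groups compared, a replicate block, each library left out and, added after the data were seen, the 3 deviating libraries left out. Replicate numbers were not treated as pairs. Within-group pairs differed by 3.21 to 24.8 times the Poisson expectation, so none was treated as a duplicate. Named were the 10 members, Yap1, Wwtr1, Srf, Mrtfa, Mrtfb and Tead1, and of each other list up to 4 called genes with the smallest p and up to 2 abundant genes that did not pass for FGF2 in DMSO, and up to 2 called genes in other comparisons. Also named were the 2 genes most like each member. The members and lists were chosen with earlier results of these data known. Coordinates are given only for the promoter sequences, on GRCm38.p6, which is not the build of the deposited files. No coordinates of genes are given, because the annotation's build differs from that of the deposited files.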

Additional observations from a re-analysis of the deposited data

Results flagged for a closer look

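For 5 members the change with FGF2 under BGJ398 differed from that in DMSO by the interaction test. On the log2 scale the difference was 0.468 for Ccn1, 0.676 for Ccn2, 0.598 for F3, −0.412 for Axl and 0.587 for Acta2. The 4 positive values belong to genes that FGF2 lowered in DMSO, and the negative one to Axl, which it raised. These signs follow from the calculation, because the change in DMSO is subtracted and the changes under BGJ398 were small. They are not a separate observation. Under BGJ398 the changes with FGF2 were 0.06 ± 0.07 for Ccn1, −0.08 ± 0.11 for Ccn2, 0.00 ± 0.06 for F3, −0.03 ± 0.05 for Axl and 0.02 ± 0.08 for Acta2 (SE). The interaction calls on Ccn1 and Ccn2 were lost under 4 and 5 of the other settings, and those on F3, Axl and Acta2 under none. Because the members were chosen with earlier results of these data known, the count of 5 is not independent evidence.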

How the results depend on the processing

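The number of members called was 7 to 8 for FGF2 in DMSO and 6 to 9 for BGJ398 with FGF2 over all settings, and 0 throughout for FGF2 under BGJ398. For BGJ398 without FGF2 it was 0, but 1 without the low-count filter, 2 with DESeq2, 2 without the 3 deviating libraries and 0 to 2 when 1 library was left out, and the members concerned were Acta2 and Tagln. For the interaction it was 5, but 7 without the low-count filter, 7 with DESeq2, 8 without the 3 deviating libraries and 3 to 6 with 1 library left out. No called value changed sign. With the replicate block the counts of members were 7 for FGF2 in DMSO (Amotl2 lost), 8 for BGJ398 with FGF2, 6 for the interaction (Ankrd1 gained, adjusted p = 0.0336) and 0 for the other comparisons. Deviations of same-numbered libraries correlated at −0.146 to 0.239, the highest between DMSO+FGF2 and BGJ398+FGF2 replicate 2. For those 2 groups all 3 correlations were positive (0.0786, 0.239 and 0.0934) but not all above 0.1, so the numbers were not taken to pair the samples. Over the 6 pairs of groups a library correlated best with its own number in 8 of 36 cases, and in 4 of 6 for those 2 groups.

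Counts over all genes moved more. For FGF2 in DMSO the 1680 genes became 1018 without DMSO replicate 3 and 2611 without the deviating libraries. For BGJ398 without FGF2 the 41 genes became 9 to 104 with 1 library left out, 83 without the filter, 150 with DESeq2, 12 from length-scaled TPM, 64 with only the groups compared, 21 with the replicate block and 730 without the deviating libraries. For FGF2 under BGJ398 the 0 genes became 6 without the filter, 5 with DESeq2, 4 without the deviating libraries and 0 to 1 with 1 library left out. For BGJ398 with FGF2 the 2782 genes became 1817 from length-scaled TPM and 1794 with only the groups compared. That count ran from 1948 to 3345 with 1 library left out and reached 3691 among the other settings. For the interaction the 532 became 345 from length-scaled TPM, 328 to 956 with 1 library left out and 1038 without the deviating libraries. The cause was not tested. Depth limits Cnn1 alone among the members.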

Other observations

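Amotl2 differed between groups in its estimated transcripts. The transcript Amotl2-203 held 11.2%, 8.12% and 10.0% of the gene's TPM in DMSO, 14.9%, 19.1% and 15.5% in BGJ398, and 18.5%, 31.6% and 16.4% in BGJ398+FGF2, so every inhibitor library stood above every DMSO library. In DMSO+FGF2 it held 7.72%, 17.7% and 10.4%, and these libraries overlapped the DMSO, the BGJ398 and the BGJ398+FGF2 libraries. The highest shares in BGJ398+FGF2 and DMSO+FGF2 were in replicate 2 of each, libraries that deviated from their groups, whereas BGJ398 replicate 1, which deviated too, had the lowest share of its group. The gene's main transcript held 60.4% to 78.6% over the 12 libraries. These shares are Salmon's estimates for overlapping transcripts. They were picked after their values were seen and were not tested. For the other 8 members above the low-count filter, 1 transcript held at least 75.3% of the TPM in every library.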
